A study of Homo sapiens with 2 samples.

Results

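HFM1 and PDE3A each carried 1 short cluster of MSI2 CLIP-seq peaks that held the lowest p-values of both deposited lists. The members were all peaks listed under the gene IDs ENSG00000162669 (HFM1) and ENSG00000172572 (PDE3A), which came to 3 of the 25920 peaks of replicate 1 and 5 of the 25243 peaks of replicate 2. The genes were chosen by the tally and deposited p of their peaks in both lists and by the lack of peaks elsewhere in the gene, so their strength and isolation are given as a description, with no test. The study mapped RNA bound by Musashi-2 in NB4 cells, a human line established from acute promyelocytic leukaemia, as part of work on aryl hydrocarbon receptor signals in hematopoietic stem cells. Both libraries belonged to 1 group, replicates 1 and 2, which were labelled alike: unmodified as far as the labels say, crosslinked on ice with ultraviolet light at 400 mJ per square centimetre, and precipitated with an anti-MSI2 antibody. No library with a control antibody, input RNA or depleted MSI2 was analysed here, so MSI2 binding and repeatable background cannot be told apart at any site.

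Musashi-2 is an RNA-binding protein with tandem RNA recognition motifs that favour short UAG-containing stretches. It is known in blood stem cells and myeloid leukaemia, where it regulates the translation and stability of the mRNAs it binds. In CLIP-seq, ultraviolet light links the protein to RNA it touches, the antibody recovers the protein, and the attached RNA fragments are sequenced and mapped. HFM1 is a DNA helicase related to yeast Mer3 that acts in meiotic crossover formation and is best known from germ cells. PDE3A is a phosphodiesterase that hydrolyses cyclic AMP, is inhibited by cyclic GMP, and is best known from heart, vascular smooth muscle and platelets.

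The last part of a peak's name is a whole number that no header explains. It is called the tally here, and it fell as the deposited p rose (over peaks, Spearman rho was -0.94 for replicate 1 and -0.92 for replicate 2), as a number of reads would. The lists had summed tallies of 155598 in replicate 1 and 133644 in replicate 2, and a median tally of 4 in each. The read depth of the libraries is unknown, because a sum of tallies covers only called peaks. The 3 member peaks of replicate 1 held a tally of 176, or 0.113% of its list, and the 5 of replicate 2 held 224, or 0.168%. All positions are 1-based in build hg19. Poisson and binomial intervals below are exact 95% intervals that cover counting error only and assume that tallies are reads.

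The strong HFM1 peak lay on the minus strand of chromosome 1. It ran from 91852787 to 91852929 in replicate 1, where its tally was 90 (Poisson interval 72.4 to 111). In replicate 2 it ran from 91852792 to 91852932, with a tally of 106 (86.8 to 128). The mean was 98.0 ± 11.3 (SD, n = 2). It was the peak with the highest tally in replicate 2 and was second in replicate 1, where a peak on the mitochondrial chromosome had 92. Each replicate gave the strong site nearly the same extent, 143 nt in replicate 1 and 141 nt in replicate 2.

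The strong PDE3A peak lay on the plus strand of chromosome 12. It ran from 20704379 to 20704482 in replicate 1, with a tally of 77 (60.8 to 96.2). In replicate 2 it ran from 20704387 to 20704475, with a tally of 73 (57.2 to 91.8), inside the bounds of replicate 1. The mean was 75 ± 2.8 (SD, n = 2), below that of HFM1. By tally this peak ranked 6 in replicate 1, level with 1 other peak, and 5 in replicate 2, again level with 1 other. Its place by tally was thus lower than by the deposited p, by which it ranked 1 in replicate 1 and 2 in replicate 2.

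**Figure D1:**
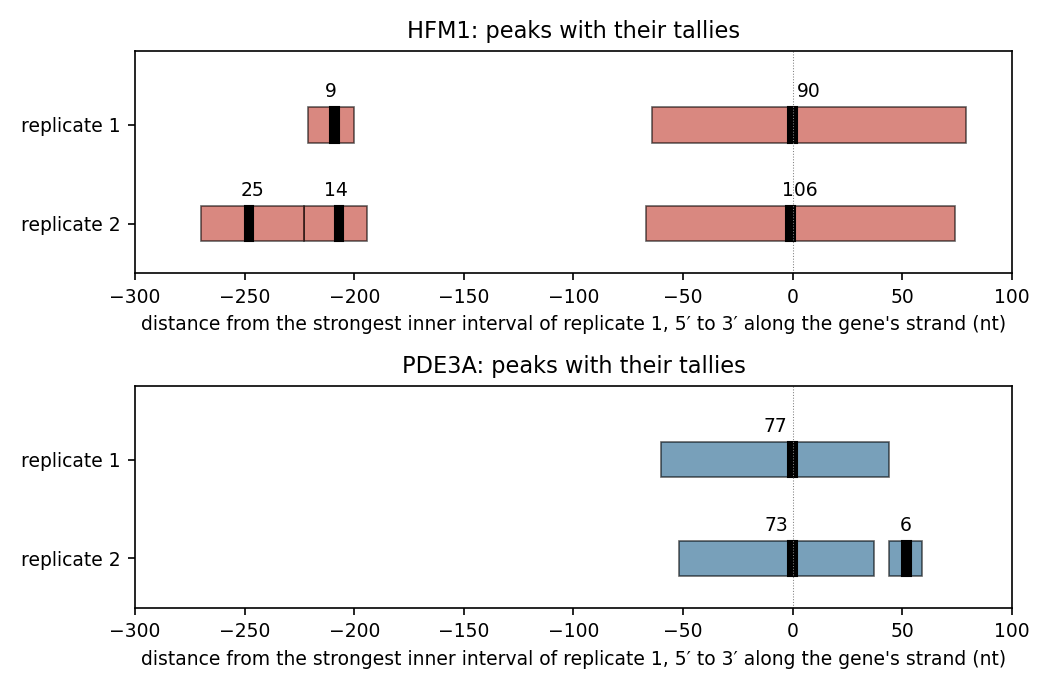
Map of all 8 peaks listed under HFM1 (upper panel) and PDE3A (lower panel), with distance in nt along the gene's strand on the x axis and 1 row per replicate. Boxes are peaks, black bars are the deposited inner intervals and numbers are tallies; the strong peaks coincide in both replicates, the weaker HFM1 peaks lie to the 5′ side, and the weaker PDE3A peak of replicate 2 lies to the 3′ side.

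HFM1 had weaker peaks on the 5′ side of the strong one, so the strong site was not its only peak. In replicate 1 a peak from 91853066 to 91853086 had a tally of 9 and a deposited p of 2.53e-06, and 136 nt separated it from the strong peak. In replicate 2 a peak from 91853060 to 91853088 had a tally of 14 and a deposited p of 4.85e-10, and the gap was 127 nt. These peaks overlapped, with inner intervals centred 2 nt apart, so HFM1 held a second recurrent site. A further peak of replicate 2, from 91853089 to 91853135, touched the second one end to end and had a tally of 25 and a deposited p of 1.19e-19. Replicate 1 listed no peak over it, and the nearest, with the tally of 9, ended 2 nt short of it. Of the 503 peaks of replicate 2 with a tally of 20 or more, 19 (3.78%) had no overlapping peak in replicate 1, and this was one of them. All HFM1 peaks of both replicates lay within 349 nt.

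PDE3A had a single peak in replicate 1 and a second, weak one in replicate 2. That peak ran from 20704483 to 20704497, with a tally of 6 and a deposited p of 0.000211. It began at the base after the end of the strong peak of replicate 1 and was separated by 7 nt from the strong peak of replicate 2. It covered 15 nt, and all PDE3A peaks lay within 119 nt.

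The weaker peaks were narrow for their tallies. In replicate 2 those of HFM1 touched each other end to end and that of PDE3A lay 7 nt from the strong peak. The weaker HFM1 peak of replicate 1 had no peak so near, with 136 nt to the strong one. How far adjoining peaks limited the widths was not tested. The HFM1 peak with a tally of 9 was 21 nt wide, and 2.39% of the 752 peaks with that tally in replicate 1 were as narrow or narrower, against a median of 60 nt. In replicate 2 the HFM1 peak with a tally of 14 was 29 nt wide, and 2.37% of 169 peaks were as narrow, against a median of 69 nt. The PDE3A peak with a tally of 6 had 3.06% of 1666 peaks as narrow, against a median of 49 nt. The HFM1 peak with a tally of 25 was 47 nt wide and less extreme, with 13.0% of 23 peaks as narrow and a median of 77 nt. The width of the strong peaks was set beside that of other strong peaks. Among peaks with a tally of 20 or more, 27 of 691 in replicate 1 (3.91%) and 16 of 503 in replicate 2 (3.18%) were at least as wide as the strong HFM1 peak. Among peaks with a tally of 60 or more, 6 of 26 in replicate 1 and 3 of 11 in replicate 2 were, and the medians there were 119 and 95 nt, so its width was not unusual beside peaks of like tally. The strong PDE3A peak, at 104 nt in replicate 1 and 89 nt in replicate 2, had 147 (21.3%) and 185 (36.8%) of the peaks with a tally of 20 or more at least as wide, and 18 of the 26 and 8 of the 11 with a tally of 60 or more, so it was narrower than most peaks of like tally.

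Of the 8 member peaks, 6 had a partner in the other replicate, meaning a same-strand peak sharing at least 1 nt. This was 3 of 3 in replicate 1, where 35.7% of all peaks had a partner, and 3 of 5 in replicate 2, where 37.3% did. Peaks with the tallies of the weaker member peaks had partners more often. In replicate 1 the share was 69.0% at a tally of 9. In replicate 2 it was 92.3% at 14, 95.7% at 25 and 57.9% at 6. For peaks with a tally of 20 or more the background was 97.3% in replicate 1 and 96.2% in replicate 2, so nearly every peak of high tally recurred as the strong HFM1 and PDE3A peaks did. The choice of the members also fixed that their strong peaks recurred.

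The position within the strong sites was not used to choose them and was almost identical between replicates. The deposited inner interval of PDE3A spanned 20704437 to 20704440 in each replicate. That of HFM1 spanned 91852864 to 91852867 in replicate 1 and 91852865 to 91852868 in replicate 2, 1 nt apart. Over the 360 shared pairs in which both tallies were 20 or more, members included, the centres lay a median of 5 nt apart (interquartile range 2 to 9), and 72 pairs (20%) were within 1 nt. Over all 9246 shared pairs the median was 7 nt and 14.7% were within 1 nt. The HFM1 and PDE3A sites thus belonged to the more exactly repeated part of the strong pairs, which many other pairs shared.

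The edges of the strong peaks moved by a few nt. At HFM1 the lower edge differed by 5 nt and the upper by 3 nt, and the overlap of 138 nt was 94.5% of the joint extent. At PDE3A the edges differed by 8 and 7 nt, and the overlap of 89 nt was 85.6% of the joint extent. The median over the 360 strong pairs was 81.2%. An overlap as complete as that of HFM1 was met in 50 of them (13.9%), and one as complete as that of PDE3A in 141 (39.2%). Some of the 360 are 1 pair of intervals listed under several gene IDs. With each pair of intervals counted once, 29 of 312 (9.29%) overlapped as completely as HFM1 and 119 (38.1%) as PDE3A. The inner interval lay near the middle of each peak. Measured from the 5′ edge it stood at 44.8% of the width in replicate 1 and 46.8% in replicate 2 for HFM1, and at 57.7% and 58.4% for PDE3A, against medians of 54.5% and 55.4% over peaks with a tally of 20 or more.

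HFM1 took a larger part of its tally from replicate 2 than the lists as a whole did. The tallies were part of the choice of the genes, which the intervals do not allow for, so the shares are a description. Replicate 2 held 54.1% of the tally of its strong pair (binomial interval 46.8% to 61.2%), against 46.2% of the summed tallies of both lists. With all HFM1 peaks added, 145 in replicate 2 and 99 in replicate 1, the share was 59.4% (53.0% to 65.6%). Of the 145, 25 came from the peak that had no overlapping peak in replicate 1. The interval does not allow for this, since reads without a called peak are not counted. For the strong PDE3A pair the share was 48.7% (40.4% to 57.0%). Among the 360 strong pairs, 45 (12.5%) had a replicate 2 share as high as that of the strong HFM1 pair, and the middle 50% ran from 43.2% to 52.2%. Their median was 47.5%, inside the interval of the strong HFM1 pair. With 1 library per replicate no test between libraries was made, and the labels do not say that the libraries came from separate cultures.

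**Figure D2:**
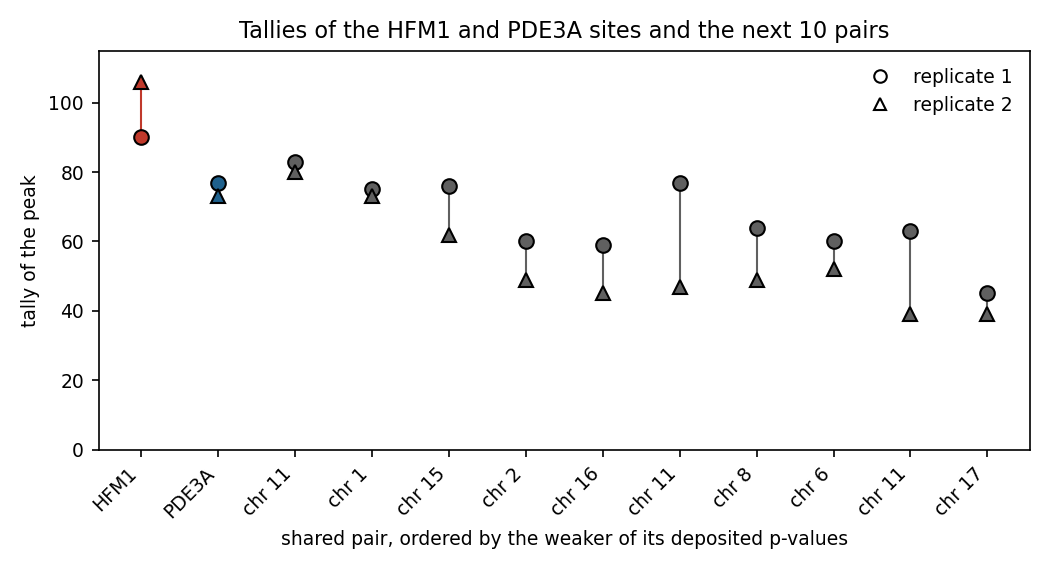
Tallies (y axis) of the strong HFM1 and PDE3A peaks and of the 10 shared pairs that follow when pairs are ordered by the weaker of their deposited p-values (x axis, named by chromosome). Circles are replicate 1 and triangles replicate 2; HFM1, at 90 and 106, is the pair whose triangle lies above its circle, while the other 11 have the lower tally in replicate 2.

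The 10 pairs that came next by the weaker deposited p had lower tallies than HFM1 in both replicates. Theirs were 45 to 83 in replicate 1 and 39 to 80 in replicate 2, a range that takes in PDE3A. The share of replicate 2 ran from 37.9% to 49.3% in them. HFM1 and PDE3A also had their tally gathered in 1 peak, as their choice required. The strong peak held 90.9% of the tally of HFM1 in replicate 1 and 73.1% in replicate 2, and 100% and 92.4% of that of PDE3A. In the 10 next pairs the median was 51.4% in replicate 1 (range 26.4% to 100%) and 47.9% in replicate 2 (29.4% to 81.7%). Their genes listed a median of 6 peaks in each replicate and spanned a median of 7522 nt from first to last peak, with a range of 208 to 32814 nt. One of the 10, on the plus strand of chromosome 8 at 98863801 to 98863932 with tallies of 64 and 49, had all of its peaks within 208 nt, between the 119 nt of PDE3A and the 349 nt of HFM1.

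The deposited p of both sites was low for their tallies. At HFM1 the authors' lists give a p of 2.66e-90 in replicate 1 and 3.1e-106 in replicate 2, so that -log10 p divided by the tally was 0.995 in each. At PDE3A they give 3.74e-91 and 6.66e-88, and this quotient was 1.17 in replicate 1 and 1.19 in replicate 2, the highest of each list. Over the other peaks with a tally of 20 or more its median was 0.55 in replicate 1 (range 0.13 to 0.98) and 0.56 in replicate 2 (0.14 to 1.03). By this quotient the strong HFM1 peak ranked 2 in replicate 1 and 6 in replicate 2. The mitochondrial peak with a tally of 92 in replicate 1 had a p of 5.28e-13 and a quotient of 0.13, so the order by p and the order by tally differed. The weaker HFM1 and PDE3A peaks had quotients of 0.61 to 0.76, nearer than the strong ones to the medians of 0.55 and 0.56. Only the HFM1 peak with a tally of 25 is among the tallies of 20 or more that these medians cover. Over whole lists the weaker peaks still stood high, at rank 1650 of 25920 in replicate 1. In replicate 2 the ranks were 122 and 591 for HFM1 and 1638 for PDE3A, of 25243. The sources used here do not say how p was computed, and p was part of the choice of these genes.

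**Figure D3:**
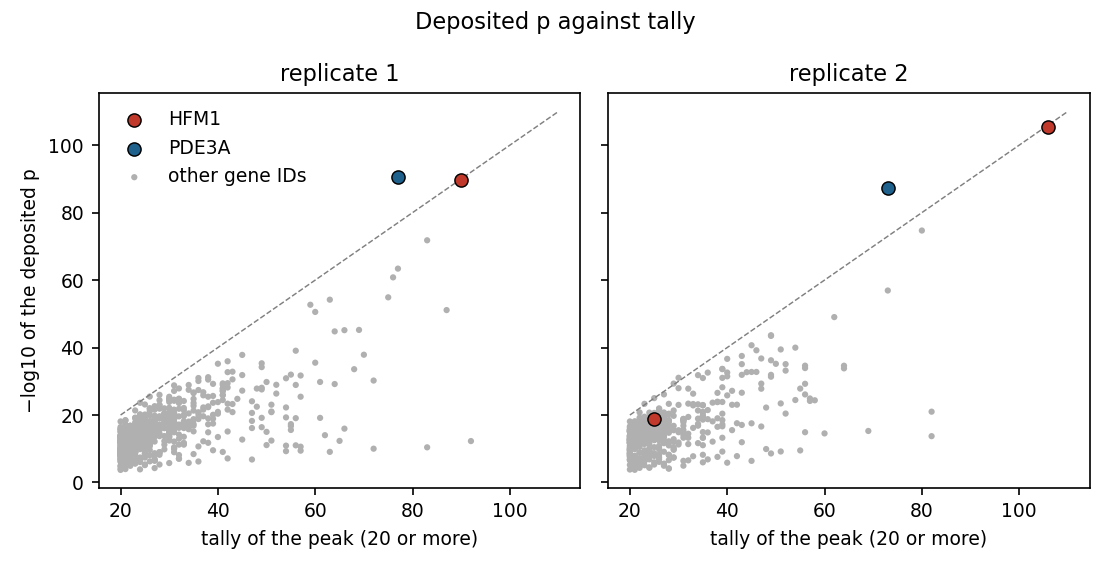
Minus log10 of the deposited p (y axis) against tally (x axis) for every peak with a tally of 20 or more in replicate 1 (left) and replicate 2 (right). The dashed line marks 1 unit of −log10 p per unit of tally; PDE3A lies above it in both lists, the strong HFM1 peak lies on it, and most other peaks lie below it.

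Lone sites like these recurred under many gene IDs, mostly at low tallies. Of the 4001 gene IDs with a shared pair, 637 had all of their peaks, over both lists, within 500 nt. HFM1 and PDE3A had the highest weaker tally of these, 90 and 73, which their choice as strong, isolated sites largely fixed. The other 635 had a median weaker tally of 5, an upper quartile of 8 and a highest of 60, and 33 of them (5.20%) reached 20. Over all 9246 shared pairs, counted by pair and not by gene ID, 360 (3.89%) did. These shares are not like for like, since each lone gene ID counted once, by its highest weaker tally. Whether lone sites differed in tally from other gene IDs was not tested. Of the 635, 187 lay at no distance from a peak of another gene ID, which HFM1 and PDE3A did not. The quotient of -log10 p over tally in the 33 had a median of 0.51 in replicate 1 (0.14 to 0.98) and 0.59 in replicate 2 (0.15 to 1.03). The strongest of the others, on the plus strand of chromosome 6 from 52860653 to 52860747 in both replicates, had tallies of 66 and 60 and a quotient of 0.24 in each. The medians of the 33 lay near those over all non-member peaks with a tally of 20 or more, 0.55 in replicate 1 and 0.56 in replicate 2. The 500 nt rule takes no account of gene length and takes in intervals listed under several gene IDs. Whether isolation bears on the p of a peak was not tested.

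Both sites also lay far from peaks listed under other genes. The choice of genes with no peaks elsewhere fixes this distance in part, so it is a description and no independent measure. The nearest was 917 kb from the PDE3A peaks in each replicate. For HFM1 it was 124 kb away in replicate 1, a plus-strand peak, and 448 kb away in replicate 2. Over the 360 strong pairs the median distance, taking the nearer of the replicates, was 14.4 kb. An interval listed under several gene IDs is at 0 by construction. With each pair of intervals counted once the median over 312 pairs was 26.4 kb, but such intervals stay among them at 0. Over the 268 strong pairs not at 0 kb the median was 36.6 kb. Over all 9246 pairs it was 38.2 kb. A distance as great as that of PDE3A was met in 3 of the 360, PDE3A included, and one as great as that of HFM1 in 61 (16.9%), and in 1932 (20.9%) of all pairs. The members thus differed from each other here, with PDE3A near the far end of the strong pairs and HFM1 above their median.

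**Figure D4:**
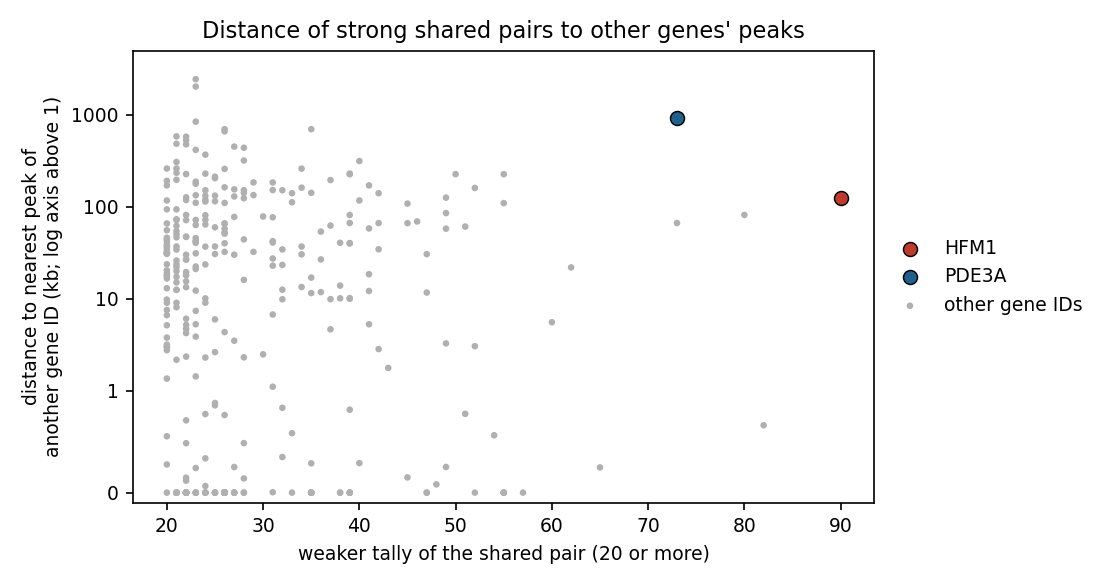
Distance in kb from each shared pair to the nearest peak of another gene ID (y axis, logarithmic above 1 kb, the nearer of both replicates) against the weaker tally of the pair (x axis), for the 360 pairs with both tallies at 20 or more. PDE3A, at 917 kb, and HFM1, at 124 kb, combine high tallies with distances above the medians of 14.4 kb over these pairs and 38.2 kb over all pairs; points at 0 include intervals listed under several gene IDs.

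The RefSeq annotation of GRCh38.p14, used for names and neighbours only, places HFM1 on the minus strand of chromosome 1 between ZNF644 and CDC7, and PDE3A on the plus strand of chromosome 12 between AEBP2 and SLCO1C1. The peaks had the same chromosomes and strands. It also lists 1 gene overlapping HFM1, the pseudogene FEN1P1, and 3 overlapping PDE3A, namely PDE3A-AS1, UBE2L2 and LOC728688. Reads of any of these on the member's strand could be listed under its ID where the annotations coincide. PDE3A-AS1 is named as antisense to PDE3A. Whether the sites lie in exons or introns was not analysed here, since no hg19 annotation was used. No hg19 sequence was used either, and a placement of reads from repeated or ribosomal RNA sequence at these sites was not tested.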

How the data were processed

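The submitters' processing notes name STAR 2.3.0e, Bowtie 1.0.0 and cutadapt, and build hg19. Names of the deposited lists record trimming of poly(A) and adapter sequence and removal of duplicate reads, and each library had 1 list. The peak caller, its settings, and whether the deposited p-value was corrected for the number of peaks are not stated in any source used here. Every deposited p-value was under 0.05 and every tally was 3 or more. The lists have no header.

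Gene IDs, tallies and positions were read from each line. Peaks were called shared at an overlap of 1 nt or more on the same strand, whatever their gene IDs. Each replicate 1 peak was paired with the replicate 2 peak that overlapped it most. Distances are to the nearest peak of another gene ID in the same list. Overlap, merging and distance steps were tested on simulated data. Versions were Python 3.11.15, SciPy 1.17.1, pandas 2.3.3, NumPy 2.4.6 and matplotlib 3.10.9.

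The members, lists and rules were chosen with earlier results of these data known. Named items were every peak of both genes and, as ranges, the 10 next shared pairs and the recurrent lone sites. Planned lists of related genes were not analysed, because the gene table at hand pairs no Ensembl ID with a symbol. For the same reason genes marking NB4 cells were not checked, and the names HFM1 and PDE3A were given with the 2 gene IDs. No fit across peaks and no test was made, since both libraries form 1 group.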

Additional observations from a re-analysis of the deposited data

How the results depend on the processing

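Of 39 recomputed values, 22 stayed within the margin set for them and 17 moved. The margins differed between kinds of value, so these counts do not measure robustness. Overlapped peaks going from 6 to 8 stayed within theirs, while a PDE3A mean going from 75 to 78 moved. The member peaks overlapped by the other replicate numbered 6 of 8 as deposited and with a reciprocal overlap of 50% or the stronger 50% of each list by p, 7 with midpoints within 50 nt, 4 of 6 with the strongest 10%, and 8 after extension of each peak by 10 nt. Leaving out a replicate leaves the value of the other one, 90 to 106 for HFM1 and 73 to 77 for PDE3A. Merging peaks within 50 nt gave PDE3A a mean of 78 and did not change HFM1. It lowered the ranks by tally of HFM1 to 15 and 6, and of PDE3A to 28 and 17, in replicates 1 and 2, since merging adds the tallies of neighbouring peaks in other genes. Ranked by tally per nt of width, HFM1 stood at 629 and 464 and PDE3A at 550 and 419 (the cause was not tested). By the deposited p PDE3A stood at 1 and 2. Without mitochondrial peaks HFM1 stood at 1 in replicate 1 and PDE3A at 4 in both replicates. On the same strand alone, the nearest peak of another gene ID was 401 kb from HFM1 in replicate 1, and 957 and 965 kb from PDE3A. The extension by 10 nt, the exclusion of mitochondrial peaks the merged replicate 2 shares and the count of each pair of intervals once were chosen after seeing the data. Library depth is not given in the files, so how well absent peaks were covered is unknown. No paired analysis was possible because both replicates belong to 1 group.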
